A study of Mus musculus with 8 samples.

Results

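Mouse bone marrow-derived macrophages (BMDM) were profiled by RNA-seq with reads counted per gene, in 2 knockout libraries and 2 control libraries out of the 8 libraries of the series. Knockout cultures came from C57BL/6 mice of the genotype Lyz2-Cre;Trpv2fl/fl, and control cultures from C57BL/6 mice of the genotype Trpv2fl/fl. Both genotypes therefore carry the floxed Trpv2 allele, and only the knockouts carry Cre, driven from the myeloid lysozyme locus Lyz2. The series counts 2 mice in each group. Marrow was grown in M-CSF at 10 ng/mL and collected on day 7, without any stimulus named in the labels. The other 4 libraries are dendritic cell cultures of both genotypes (BMDC), grown in GM-CSF at 20 ng/mL. They serve here only for comparison.

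All 14311 genes of the macrophage table belong to the comparison, and 11024 had enough reads to be tested. The 3287 others were too low. With no library that has Cre and unfloxed Trpv2, the loss of Trpv2 and the presence of Cre at Lyz2 cannot be told apart. With 2 libraries a group, the spread behind each p-value and interval is borrowed mostly from other genes. The fit had 2 residual degrees of freedom, and a median total of 31.4 after this borrowing.

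Trpv2 is a calcium-permeable cation channel of the transient receptor potential (TRP) family. In macrophages it is known for roles in early phagocytosis and in cytoskeletal responses. M-CSF drives marrow progenitors to become macrophages, which clear particles through surface receptors and digest them in lysosomes rich in lysozyme and cathepsins. Mice have a pair of neighbouring lysozyme genes. Lyz2 encodes lysozyme M of macrophages, and Lyz1 encodes lysozyme P, best known from Paneth cells of the intestine.

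Several of the genes that differed have near-identical relatives, which matters for reading their counts. The first 120 coding bases of both lysozyme genes follow, from GENCODE M21 on GRCm38, with the bases that differ between them in capitals. The stretches lie at chr10:117282123-117282242 and chr10:117292719-117292838, both on the minus strand. Coordinates given further on as deposited mostly differ from those of this annotation and are not to be set against these.
Lyz2: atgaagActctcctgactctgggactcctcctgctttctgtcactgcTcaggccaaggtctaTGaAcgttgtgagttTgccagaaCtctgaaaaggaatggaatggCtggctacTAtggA
Lyz1: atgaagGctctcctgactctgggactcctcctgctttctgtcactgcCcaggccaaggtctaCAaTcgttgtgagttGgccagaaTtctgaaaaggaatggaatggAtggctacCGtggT
Of 447 coding bases, 22 differ between Lyz2 and Lyz1, and 11 of these lie in the stretch shown. The longest identical run is 118 bases, and 195 of the 1267 different 50-base windows of Lyz2 transcripts (15.4%) also occur in Lyz1. Most of Lyz2 can therefore be told from Lyz1 by a read of that length, and a part cannot.

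The dynein light chain genes Dynlt1b and Dynlt1f are closer still. Their first 120 coding bases span an intron on chromosome 17 (Dynlt1b at chr17:6430212-6435058 on the plus strand, Dynlt1f at chr17:6650176-6655800 on the minus strand, GRCm38).
Dynlt1b: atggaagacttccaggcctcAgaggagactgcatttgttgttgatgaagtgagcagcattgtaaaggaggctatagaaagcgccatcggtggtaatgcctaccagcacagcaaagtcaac
Dynlt1f: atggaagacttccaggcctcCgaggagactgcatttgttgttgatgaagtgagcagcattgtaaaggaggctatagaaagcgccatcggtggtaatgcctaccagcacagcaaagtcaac
In capitals stands the single base, of 342 coding bases, at which they differ. Of the 722 windows of 50 bases in Dynlt1b transcripts, 601 (83.2%) occur in another gene, chiefly Dynlt1a, Dynlt1c and Dynlt1f. The sources used here do not say how reads that match more than 1 gene were counted, so values of single members of these families are uncertain.

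The cultures carried the transcripts of macrophages. All 30 genes of a macrophage identity list were detected and tested. Ctss, a lysosomal cysteine protease, had 5227 and 5413 CPM in the knockouts and 5375 and 5010 CPM in the controls. CPM here are counts relative to the library total after TMM scaling, which corrects for differences in RNA makeup. Apoe, a lipid transport protein, had 14972 and 17529 CPM in the knockouts and 19827 and 16748 CPM in the controls. Few markers of dendritic cells (5 of 17), neutrophils (6 of 20), and T and NK cells (3 of 18) had enough reads to be tested. Their summed levels overlapped between the genotypes. FPKM are reads scaled by gene length and library total. Summed over a list of 17 dendritic cell markers, they were 38.1 and 38.5 in the knockouts and 37 and 42.8 in the controls. Of this, Irf8 alone gave 24.7 and 25.5 in the knockouts and 23.7 and 27.2 in the controls. The macrophage list summed to 24249 and 25567 in the knockouts and 69085 and 64362 in the controls. Of this, Lyz2 alone gave 189 and 207 in the knockouts and 43888 and 40620 in the controls. In the macrophage list 2 genes passed the test by edgeR, both lower in the knockouts. Of 20 neutrophil markers, 13 were listed in the table, with a summed FPKM of 85 and 98.1 in the knockouts and 91.7 and 76.3 in the controls. The summed FPKM of T and NK cell markers was 42.3 and 34.7 in the knockouts and 28.2 and 37.7 in the controls. Of this, Il7r alone gave 36.1 and 28.8 in the knockouts and 24 and 32.3 in the controls. The sums of the dendritic and of the T and NK cell lists therefore say little about their other markers. Osteoclast markers were higher, with a summed FPKM of 349 and 367 in the knockouts and 335 and 358 in the controls. Of this, Ctsk gave 233 and 257 in the knockouts and 231 and 246 in the controls. No marker of any list of other cells passed the test by edgeR or DESeq2. An unadjusted p under 0.05 by edgeR was reached by 3 such markers, Mmp9 and Cebpe lower and Jchain higher in the knockouts. Jchain had 1.67 and 1.2 CPM in the knockouts and 0.338 and 0.189 CPM in the controls.

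Library totals ran from 15790185 to 17176941 counts. Mitochondrial transcripts took 1.88% and 1.69% of counts in the knockouts and 1.48% and 1.71% in the controls. Across genes, the libraries did not group by genotype. The median absolute log2 difference was 0.2020 between the 2 knockouts and 0.2102 between the 2 controls. Between genotypes it was smaller for knockout 2 against control 1 (0.1508), knockout 2 against control 2 (0.1509) and knockout 1 against control 2 (0.1824). It was largest, at 0.2624, for knockout 1 against control 1.

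Few transcripts differed between knockout and control macrophages. Trpv2 itself, both lysozyme genes, the melanocyte-linked gene Lrmda, the Y-linked gene Eif2s3y, the interferon-inducible gene Ifi208 and the predicted gene Gm15446 fell. The dynein light chain gene Dynlt1b, the chemokine gene Cxcl1, the scavenger receptor gene Colec12, and the genes Cnbd2 and Capn11 rose. In all, 12 of 11024 genes passed the quasi-likelihood test of edgeR (0.109%), 5 higher (0.0454%) and 7 lower (0.0635%), at a Benjamini-Hochberg adjusted p under 0.05. An unadjusted p under 0.05 was reached by 311 genes (2.82%), 214 higher and 97 lower, where 551 are expected if no gene differs. In all 12 the groups did not overlap, which held for 2946 of the tested genes (26.7%).

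**Figure D1:**
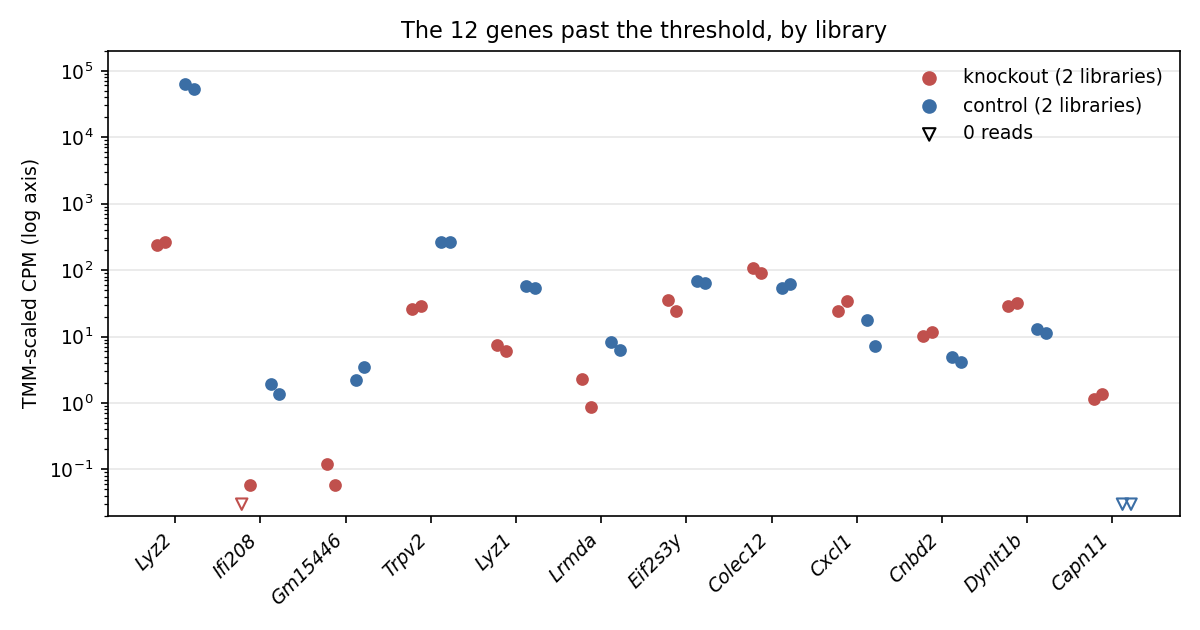
Level of the 12 genes past the threshold in each library, in TMM-scaled CPM on a log axis. Each point is 1 library, knockout left of control, and open triangles mark 0 reads. Lyz2 is at 235 and 269 CPM in the knockouts and at 62411 and 53346 CPM in the controls, and Capn11 has no read in either control.

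The targeted gene was low in both knockout libraries. Trpv2 (ENSMUSG00000018507, chromosome 11, 62465312 to 62491341 as deposited, plus strand) had 25.6 and 28.6 CPM in the knockouts and 268 and 269 CPM in the controls. Both knockouts lie far below both controls, at 10.1% of their level. The log2 fold change was -3.31 (SE 0.16, 95% interval -3.63 to -2.98, edgeR adjusted p = 3.5e-15). In raw counts this is 429 and 499 reads in the knockouts and 3961 and 4273 in the controls. The sources used here do not say which exons are floxed, and the counts cover the whole gene. Fewer cells with Trpv2 and less Trpv2 RNA per cell cannot be told apart in bulk RNA, here as in every result below.

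No other TRP channel passed, and 1 other, Mcoln3, had an unadjusted p under 0.05 by edgeR. Of a list of 23 channels, 13 were in the table and 10 were tested, and Trpv2 was the sole one past the threshold by edgeR and by DESeq2. The lysosomal calcium channel gene Mcoln1 had 129 and 137 CPM in the knockouts and 141 and 138 CPM in the controls (log2 -0.07, 95% interval -0.39 to 0.25). Its relative Mcoln2 had 142 and 147 CPM in the knockouts and 170 and 152 CPM in the controls (log2 -0.16). Trpm7, a channel fused to a kinase, had 71.4 and 42.3 CPM in the knockouts and 47.0 and 57.6 CPM in the controls, overlapping. Trpv4, the other vanilloid-type channel tested, had 11 and 12.2 CPM in the knockouts and 13 and 13.3 CPM in the controls. For 9 of the 10, the 95% interval lay within a 2-fold change either way. Trpv3, Trpc4 and Trpc6 had at most 10 reads in any library and were not tested.

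Lyz2 was the most reduced transcript that had reads in every library. It (ENSMUSG00000069516, chromosome 10, 117113236 to 117118226 as deposited, minus strand) had 235 and 269 CPM in the knockouts and 62411 and 53346 CPM in the controls. This gene took 0.0249% and 0.0273% of all counts in the knockouts and 5.78% and 5.35% in the controls. The log2 fold change was -7.85 (SE 0.17, 95% interval -8.20 to -7.49, edgeR adjusted p = 4.1e-22), which leaves 0.435% of control.

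Lyz1 lies 5475 bases beyond Lyz2 in the deposited coordinates and fell too. It had 7.46 and 6.08 CPM in the knockouts and 57.9 and 54.0 CPM in the controls, which is 12.1% of control (log2 -3.05, SE 0.19, edgeR adjusted p = 2.1e-12). Its counts were 3.18% and 2.26% of those of Lyz2 in the knockouts and 0.0927% and 0.101% in the controls. The part that reads shared with Lyz2, shown by the sequences above, have in the level of Lyz1 was not tested. The other tested genes around Lyz2 did not pass the test in either direction. Yeats4, a chromatin reader, had 40.7 and 43.0 CPM in the knockouts and 48.1 and 49.2 CPM in the controls (log2 -0.22, 95% interval -0.57 to 0.13). Cct2, a chaperonin subunit, had 232 and 214 CPM in the knockouts and 233 and 220 CPM in the controls.

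Around Trpv2 on chromosome 11, Trpv2 was likewise the sole gene of 16 tested that passed. Ubb, a polyubiquitin gene, had 592 and 681 CPM in the knockouts and 748 and 620 CPM in the controls (log2 -0.10). Aldh3a2, a fatty aldehyde dehydrogenase, had 62.8 and 51.6 CPM in the knockouts and 54.6 and 67.5 CPM in the controls, overlapping. The largest difference among the neighbours was that of Zfp286 (log2 0.56, 95% interval -0.40 to 1.53), at 1.49 and 2.47 CPM in the knockouts and 1.42 and 1.26 CPM in the controls.

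Lrmda, a gene of melanocyte differentiation whose product binds the small GTPases Rab32 and Rab38, was low in the knockouts. It (ENSMUSG00000063458, chromosome 14, 22069780 to 23106153 as deposited) had 38 and 15 reads in the knockouts and 121 and 99 in the controls. That is 2.27 and 0.860 CPM in the knockouts and 8.19 and 6.23 CPM in the controls. The log2 fold change was -2.20 (SE 0.38, 95% interval -2.97 to -1.44, edgeR adjusted p = 0.0022), and none of its 50-base windows occurs in another gene. It passed without each library in turn, but its adjusted p was 0.086 when libraries were scaled by their totals alone. Lrmda also missed the threshold with totals without the Lyz2 counts (edgeR adjusted p = 0.057) and in the joint fit of all 8 libraries. Of 24 tested genes of Rab32, Rab38 and organelle trafficking (BLOC, AP-3 and HPS subunits), no other passed. Rab38 itself had 2.93 and 2.98 CPM in the knockouts and 0.880 and 1.32 CPM in the controls, without overlap (log2 1.41, SE 0.45, adjusted p = 1.00). Gpnmb, a melanosomal and lysosomal glycoprotein abundant in macrophages, had 15119 and 16026 CPM in the knockouts and 13341 and 14965 CPM in the controls (log2 0.14).

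Gm15446 and Ifi208 were near the floor of detection in the knockouts. Gm15446, a predicted gene on chromosome 5, had 2 and 1 reads in the knockouts and 33 and 55 in the controls. Scaled for depth, that is 3.06% of control (exact binomial 95% interval 0.619% to 9.24%, edgeR adjusted p = 2.5e-04). Ifi208, of the interferon-inducible PYHIN family, had 0 and 1 reads in the knockouts and 29 and 22 in the controls, a ratio of 1.76% (exact binomial 95% interval 0.0437% to 10.3%, edgeR adjusted p = 0.0044). These intervals cover counting error only. The adjusted p of Ifi208 was 0.15 with knockout 1 left out and 0.085 with control 1 left out, 0.30 by DESeq2 and 0.51 by limma on log2(FPKM + 1). Of the 50-base windows of their transcripts, 32.3% for Gm15446 (chiefly Zfp932) and 20.8% for Ifi208 (chiefly Ifi213) occur in another gene.

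Eif2s3y, a Y-linked subunit gene of translation initiation factor eIF2, fell, while no other Y-linked gene passed. It had 35.8 and 24.5 CPM in the knockouts and 67.4 and 63.3 CPM in the controls, which is 46.1% of control (log2 -1.12, SE 0.18, edgeR adjusted p = 0.0021). The RNA helicase gene Ddx3y had 51.9 and 30.3 CPM in the knockouts and 37.1 and 41.0 CPM in the controls. The histone demethylase genes Kdm5d (log2 0.15) and Uty (log2 0.31) overlapped between the groups as well. All 4 libraries thus held Y-linked transcripts, summing over the other 3 genes to 94.2 and 59.1 CPM in the knockouts and 60.3 and 78.4 CPM in the controls. Of 8 tested sex-linked genes, X-linked ones included, 3 had an unadjusted p under 0.05 by edgeR, against 2.82% of all tested genes. By DESeq2 there were 2. The highest log2 fold change was that of the X-linked Eif2s3x, at 0.48. Ddx3x stood at 0.40 and Kdm5c at -0.03, and no X-linked gene of the list passed. Eif2s3y shares no 50-base window with another gene. Among 14 other settings that kept every library it passed in 10. It missed the threshold with library totals without TMM (edgeR adjusted p = 0.11) and with totals without the Lyz2 counts (edgeR adjusted p = 0.057). It also missed it by limma on log2(FPKM + 1) (adjusted p = 0.092) and in the joint fit of all 8 libraries. Without knockout 2, the lower of the pair, its log2 fold change was -0.87 and the adjusted p 0.060.

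Dynlt1b, a light chain of the dynein motor, rose 2.48-fold. It (ENSMUSG00000096255, chromosome 17, 6697511 to 6703695 as deposited) had 28.6 and 31.6 CPM in the knockouts and 12.8 and 11.5 CPM in the controls (log2 1.31, SE 0.19, 95% interval 0.92 to 1.70, edgeR adjusted p = 2.8e-04). Its near-identical relatives did not pass. Dynlt1a had 14.1 and 14.7 CPM in the knockouts and 13.4 and 12 CPM in the controls (log2 0.18, 95% interval -0.24 to 0.61). Dynlt1f had 12.1 and 15.4 CPM in the knockouts and 16.5 and 10.9 CPM in the controls (log2 0.01, 95% interval -0.45 to 0.47). The 4 family members together came to 59.2 and 66.3 CPM in the knockouts and 46.7 and 39.1 CPM in the controls. Without Dynlt1b they came to 30.6 and 34.7 CPM in the knockouts and 33.9 and 27.6 CPM in the controls. Of 12 tested dynein light and intermediate chain genes, no other passed.

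**Figure D2:**
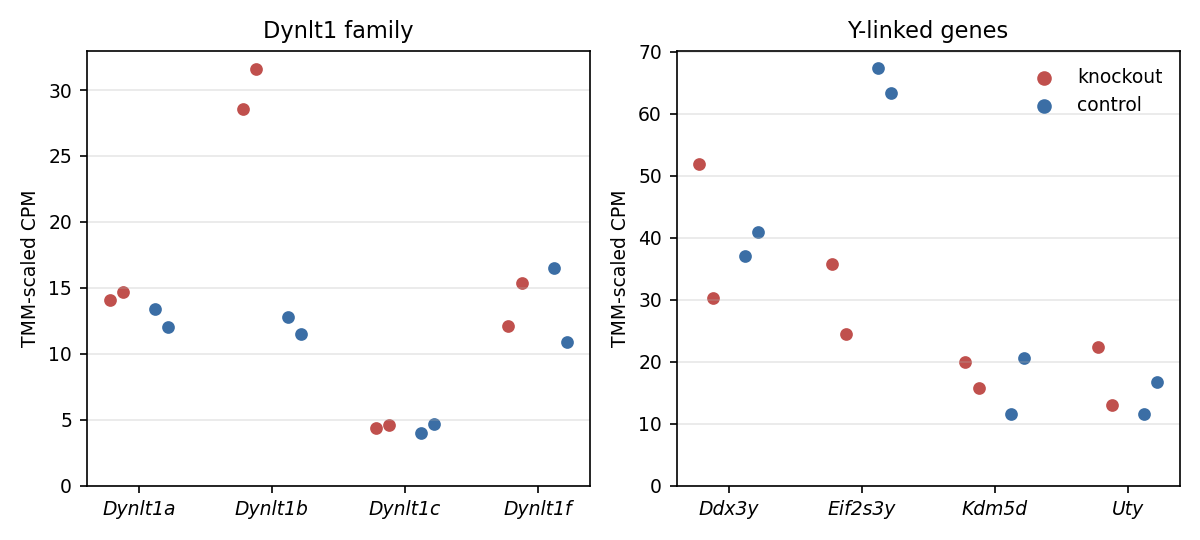
TMM-scaled CPM of the Dynlt1 family (left) and of the Y-linked genes in the table (right), 1 point per library, knockout left of control. Dynlt1b stands apart at 28.6 and 31.6 CPM in the knockouts and 12.8 and 11.5 CPM in the controls, and Eif2s3y at 35.8 and 24.5 CPM in the knockouts and 67.4 and 63.3 CPM in the controls. The other members overlap or lie close.

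The other 4 genes that rose each missed the threshold without 1 library or more. Colec12, a scavenger receptor of the collectin family, had 109 and 90.3 CPM in the knockouts and 53.8 and 61.4 CPM in the controls (1.73-fold, log2 0.79, SE 0.17, edgeR adjusted p = 0.042). It was the smallest fold change past the threshold. It missed the threshold without knockout 1 (log2 0.65, adjusted p = 1.00) and without control 1 (log2 0.71, adjusted p = 0.21). Among 14 other settings it passed in 6, and it missed the threshold with DESeq2 size factors (adjusted p = 0.061), a filter at 1 CPM (0.051), library totals without TMM (0.086) and limma on FPKM (0.20 and 0.095). Cxcl1, a neutrophil-attracting chemokine, had 24.4 and 34.8 CPM in the knockouts and 18.0 and 7.11 CPM in the controls (2.36-fold, adjusted p = 0.035). Its groups were separated by less than the gap between its controls. Without control 2 the log2 fold change was 0.73 instead of 1.24, with an adjusted p of 0.45, and by DESeq2 the adjusted p was 1.00. It too passed in 6 of the 14 other settings.

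Cnbd2, a gene with a cyclic nucleotide-binding domain, had 10.3 and 11.9 CPM in the knockouts and 4.94 and 4.09 CPM in the controls (2.46-fold, edgeR adjusted p = 0.024). On the opposite strand it overlaps Scand1 by 449 bases of the deposited coordinates. Scand1, a SCAN-domain gene, had 8 and 9.46 CPM in the knockouts and 15.9 and 12.3 CPM in the controls (log2 -0.69, adjusted p = 1.00). The libraries are stranded, but the strand setting of the counting is not given, so reads of the overlap cannot be assigned with certainty. Summed, Cnbd2 and Scand1 had 18.3 and 21.3 CPM in the knockouts and 20.8 and 16.4 CPM in the controls, overlapping. The part that reads of the overlap have in the level of Cnbd2 was not tested. The adjusted p of Cnbd2 was 0.082 with knockout 2 left out and 0.15 with control 2 left out. Capn11, a calpain protease best known from testis, had 19 and 24 reads in the knockouts and none in either control. Against a floor of 3 counts per library it was at least 6.41-fold higher (edgeR adjusted p = 0.012). Leaving out control 1 raised that p to 0.12, leaving out control 2 raised it to 0.15, and by DESeq2 it was 0.088.

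Just above the threshold stood Tspan10, a tetraspanin, with 8.72 and 9.18 CPM in the knockouts and 4.26 and 2.96 CPM in the controls (log2 1.31, adjusted p = 0.054). Il1a, the cytokine interleukin-1 alpha, had 15.5 and 15.0 CPM in the knockouts and 9 and 6.16 CPM in the controls (log2 1.01, adjusted p = 0.12). The efferocytosis receptor gene Axl had 22.5 and 20.9 CPM in the knockouts and 12.5 and 13.6 CPM in the controls (log2 0.73, adjusted p = 0.51). On the lower side, H2-Q7, one of several similar nonclassical MHC class I genes, had 0.955 and 0.803 CPM in the knockouts and 4.26 and 1.82 CPM in the controls (log2 -1.78, adjusted p = 0.60). The gelatinase gene Mmp9 had 21.9 and 22.1 CPM in the knockouts and 33.8 and 32.3 CPM in the controls (log2 -0.59, adjusted p = 0.97). None of these 5 passed, and their groups did not overlap, as for 26.7% of all genes tested.

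**Figure D3:**
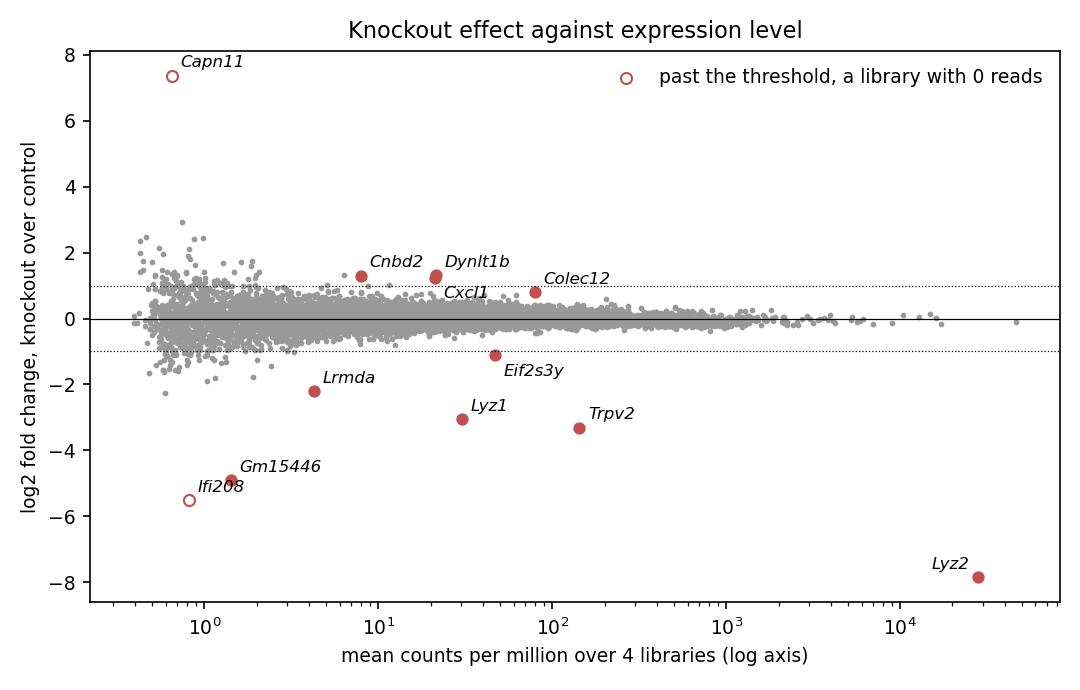
Log2 fold change of knockout over control against the mean level in CPM relative to library totals (log axis) for the 11024 tested genes. Red points are the 12 genes past the threshold, open where a library had 0 reads (Ifi208 and Capn11, whose fitted values are no bounds), and dotted lines mark a 2-fold change. Beyond the lowest levels, few other genes lie outside the dotted lines.

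For most tested genes a 2-fold change lay outside the interval, and the size of change that the data exclude can be given for each gene. A fold change outside a gene's 95% interval is called excluded here, at a confidence of 95% for that gene alone. This takes as given the TMM scaling and the spread borrowed mostly from other genes. The interval lay wholly within a 2-fold change either way for 9345 of 11024 tested genes (84.8%), and within 1.5-fold for 6433 (58.4%). Across genes the median log2 fold change was -0.01, and the middle 95% of genes lay between -0.51 and 0.59. The median SE was 0.19, and the median interval reached 0.39 to each side of the estimate, a factor of 1.31. A point estimate of at least 2-fold in either direction occurred in 125 genes, of which 116 were in the lowest 20% of genes by level.

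The resolution depended on the level of the gene. In the lowest 20% of genes, with mean levels of 0.392 to 5.36 CPM, a 2-fold change was excluded for 29.5% of genes and a 1.5-fold change for 0%. In the next 20%, from 5.36 to 17 CPM, the shares were 95.1% and 33.8%. In the middle 20%, up to 36.4 CPM, they were 99.6% and 76.1%. Genes of the highest 20%, above 82 CPM, had a 2-fold change excluded in 99.9% and a 1.5-fold change in 94.4%. The interval of 265 genes, each in the lowest 20%, reached past a 2-fold change in both directions. For the 3287 genes not tested, no interval is given.

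**Figure D4:**
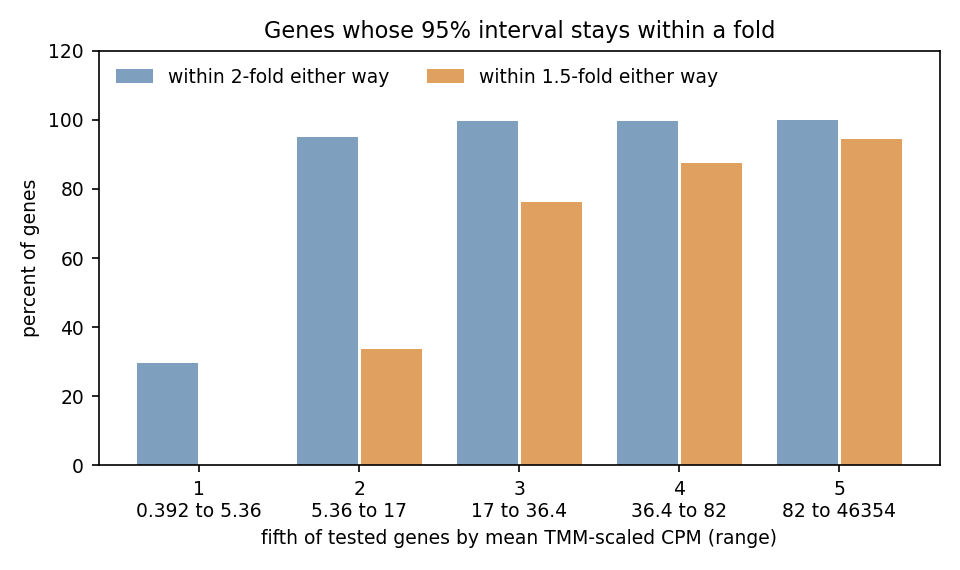
Percent of tested genes whose 95% interval of the fold change lies within 2-fold (blue) or 1.5-fold (orange) either way, for 5 equal bins of mean TMM-scaled CPM. The shares climb with level, within 2-fold to 99.9% and within 1.5-fold to 94.4% in the highest bin.

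The genes with the narrowest intervals illustrate the floor of the method. Not all of them were flat. Ptpn7 had 145 and 145 CPM in the knockouts and 166 and 171 CPM in the controls (log2 -0.22, 95% interval -0.53 to 0.10). Nono, an RNA-binding protein of nuclear paraspeckles, had 188 and 191 CPM in the knockouts and 188 and 191 CPM in the controls (95% interval of the log2 fold change -0.32 to 0.31). Ubap1, a subunit of the ESCRT-I membrane sorting complex, had 171 and 168 CPM in the knockouts and 169 and 172 CPM in the controls. Even for such genes, changes of up to about 0.3 on the log2 scale were not excluded, since their SE of 0.15 takes in the spread shared across genes. The cytoskeletal actin gene Actb had 2909 and 3165 CPM in the knockouts and 3350 and 2723 CPM in the controls (95% interval -0.34 to 0.34).

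Over 39 gene lists chosen for macrophages, calcium signalling, trafficking, viral entry and the other cells of marrow, 763 different genes were tested. Of these, 3 were higher and 5 lower past the threshold, all named above, against 0.0454% and 0.0635% over all genes. The lists hold Trpv2, the lysozyme genes and the genes seen earlier in these data, so this count is no evidence on the lists. A 2-fold change was excluded for 680 of the 763 (89.1%). Of the 36 lists with at least 5 tested genes, 31 had a median log2 fold change between -0.1 and 0.1, where all tested genes had -0.01.

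**Figure D5:**
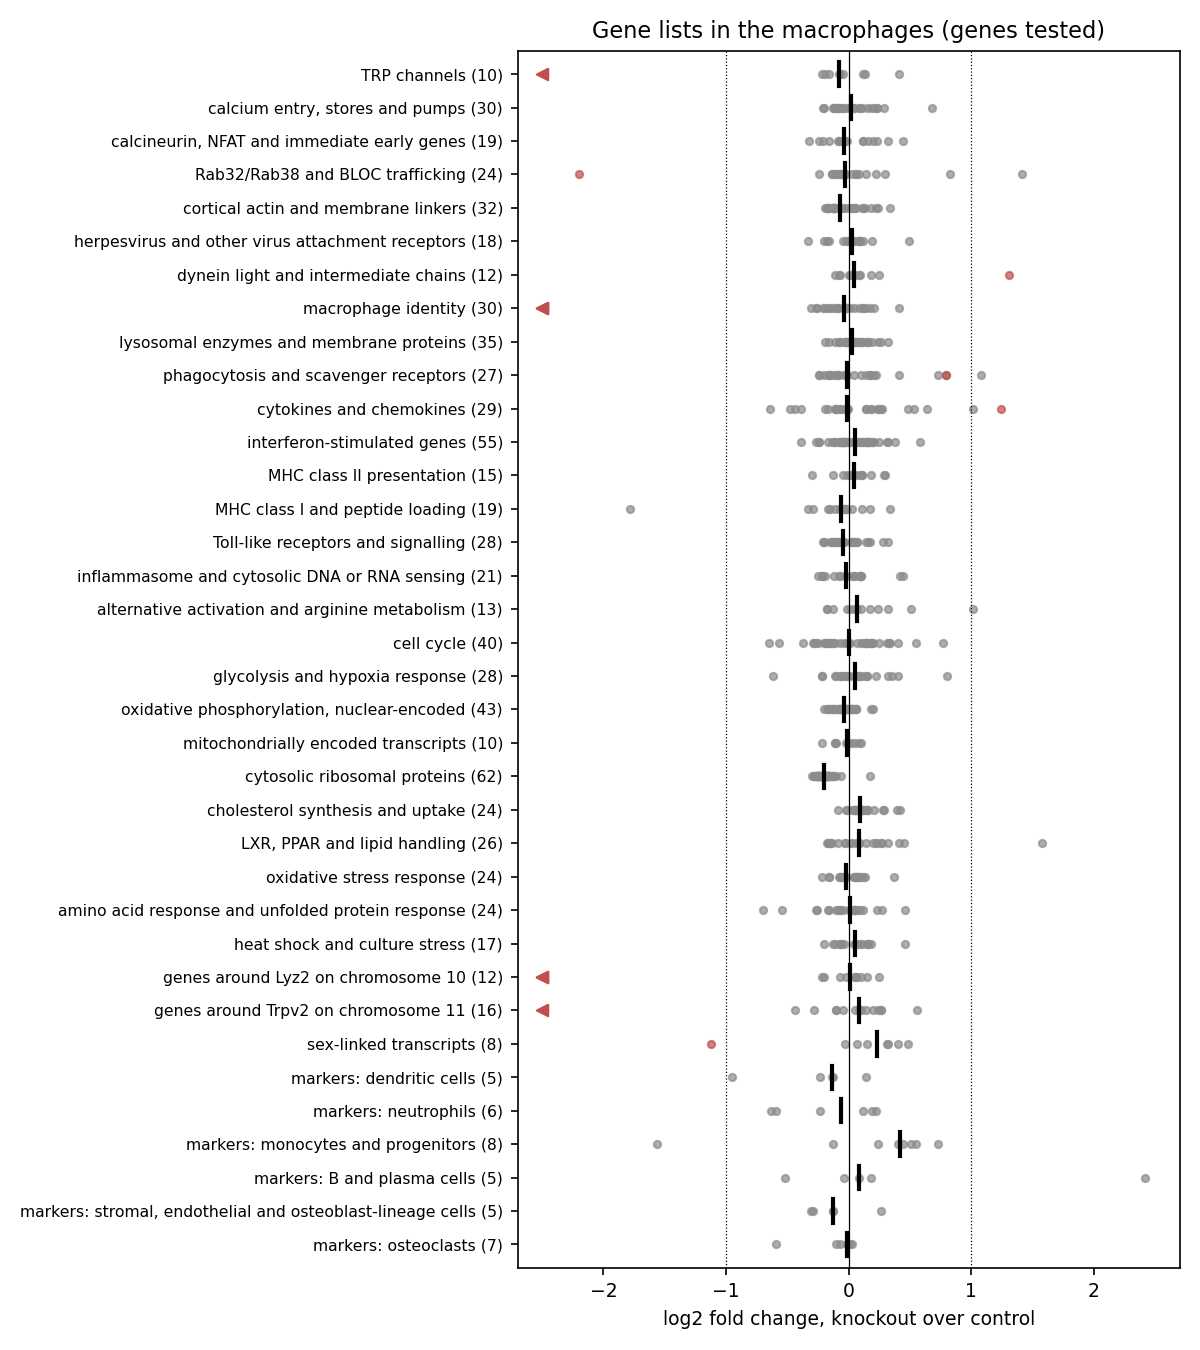
Log2 fold change of each tested member (points) and the median (black bar) of the 36 lists with at least 5 tested genes, whose number is in brackets. Red points passed the threshold, and triangles mark members beyond the left edge. Medians stay between -0.20, for cytosolic ribosomal proteins, and 0.42, for markers of monocytes and progenitors.

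Genes of calcium handling stood near the background of all genes. None of 30 tested genes of calcium entry, stores and pumps passed by edgeR or DESeq2, 1 had an unadjusted p under 0.05 by edgeR, and their median was 0.02. For 27 of them a 2-fold change was excluded, where all tested genes had 84.8% excluded and 2.82% at an unadjusted p under 0.05. The gene nearest to a difference was Slc8a1, the sodium-calcium exchanger of the plasma membrane, with 15.3 and 9.69 CPM in the knockouts and 6.84 and 8.81 CPM in the controls (log2 0.68, 95% interval 0.17 to 1.18, adjusted p = 1.00). Its groups did not overlap. Orai1, the pore of store-operated entry, had 62.2 and 73.1 CPM in the knockouts and 81.0 and 65.7 CPM in the controls. The endoplasmic reticulum pump gene Atp2a2 had 211 and 186 CPM in the knockouts and 167 and 183 CPM in the controls. Among 19 tested genes of calcineurin, NFAT and the immediate early response, 0 passed by edgeR or DESeq2 and 0 had an unadjusted p under 0.05, with a median of -0.04. The transcription factor gene Nfatc3 had 36.5 and 29.4 CPM in the knockouts and 22.1 and 30.6 CPM in the controls, overlapping.

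Genes of actin, phagocytosis and digestion lay within similar bounds. All 32 cortical actin and membrane linker genes had a 2-fold change excluded, with a median of -0.07. Actr2, a subunit of the actin-nucleating Arp2/3 complex, had 677 and 448 CPM in the knockouts and 451 and 440 CPM in the controls, so that knockout 1 alone stood high. Each of the 35 lysosomal genes also had a 2-fold change excluded. Ctsb, the protease cathepsin B, had 15834 and 16353 CPM in the knockouts and 15860 and 15912 CPM in the controls. Psap, the precursor of the saposins, had 12929 and 13028 CPM in the knockouts and 11611 and 13535 CPM in the controls.

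Of 27 tested phagocytosis and scavenger receptors, Colec12 alone passed, and 21 had a 2-fold change excluded. The fatty acid and lipoprotein receptor gene Cd36 had 1548 and 1188 CPM in the knockouts and 1098 and 1252 CPM in the controls. The scavenger receptor gene Marco had 642 and 793 CPM in the knockouts and 1188 and 506 CPM in the controls, so both knockouts fell between the controls. Of 18 tested virus attachment receptors, 0 passed by edgeR or DESeq2, and all had a 2-fold change excluded. An unadjusted p under 0.05 by edgeR was reached by 1 of the 18, against 2.82% of all tested genes. Itgav, the integrin alpha V subunit, had 61.7 and 47.1 CPM in the knockouts and 33.9 and 43.7 CPM in the controls (log2 0.49, 95% interval 0.11 to 0.86, adjusted p = 1.00). Sdc1, the heparan sulfate proteoglycan syndecan-1, had 216 and 232 CPM in the knockouts and 216 and 204 CPM in the controls.

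The inflammatory lists differed more between the libraries of a genotype than between genotypes. Of 29 tested cytokines and chemokines, Cxcl1 was the sole one past the threshold by edgeR. An unadjusted p under 0.05 by edgeR was reached by 3 of the 29, against 2.82% of all tested genes. DESeq2 passed 0, with 1 at an unadjusted p under 0.05. The list median was -0.01. Tnf had 233 and 349 CPM in the knockouts and 446 and 181 CPM in the controls, with both knockouts between the controls (log2 -0.11, 95% interval -0.59 to 0.37). Ccl3, a macrophage inflammatory chemokine, had 224 and 310 CPM in the knockouts and 366 and 177 CPM in the controls. Relative to the control mean, the median gene of this list stood on the log2 scale at -0.05 and 0.28 in the knockouts and at 0.53 and -0.53 in the controls. Without control 1 the list median was 0.60, with 4 genes past the threshold, all higher. Without control 2 it was -0.30, with 1 gene past it, lower. A 2-fold change was excluded for 15 of the 29. Il12b, Ifnb1, Lif and Ccl22 had at most 8 reads in any library and were not tested.

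The interferon-stimulated genes had the same order of libraries. The median of 55 tested genes was 0.05, 0 passed by edgeR or DESeq2, and 0 had an unadjusted p under 0.05. Relative to the control mean, their median stood on the log2 scale at -0.08 and 0.22 in the knockouts and at 0.40 and -0.40 in the controls. Ifitm3, a restriction factor of viral entry, had 518 and 759 CPM in the knockouts and 725 and 452 CPM in the controls. Bst2, which tethers budding virus, had 602 and 649 CPM in the knockouts and 703 and 428 CPM in the controls. Without control 1 the list median was 0.47, with all 55 above 0 and 1 past the threshold. Without control 2 it was -0.28, with 46 of 55 below 0. A 2-fold change was excluded for 53 of the 55. Of 28 Toll-like receptors and signalling genes, 0 passed by edgeR or DESeq2, 0 had an unadjusted p under 0.05, and a 2-fold change was excluded for all 28. Tlr7, a receptor for single-stranded RNA, had 197 and 169 CPM in the knockouts and 137 and 164 CPM in the controls.

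Antigen presentation genes did not pass either. Cd74, the MHC class II invariant chain, had 176 and 211 CPM in the knockouts and 201 and 176 CPM in the controls, and the median of 15 tested class II genes was 0.04. B2m, the light chain of class I, had 3756 and 3827 CPM in the knockouts and 4256 and 3539 CPM in the controls, with a median of -0.06 over 19 tested class I genes. Of the alternative activation genes, Slc7a2, an arginine transporter, had 2.51 and 2.64 CPM in the knockouts and 1.62 and 0.944 CPM in the controls (log2 1.01, adjusted p = 1.00). Arg1, Chil3, Mgl2 and Irf4 of that list had at most 7 reads in any library.

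Metabolic and growth genes had 0 members past the threshold by edgeR or DESeq2. Of 43 nuclear genes of oxidative phosphorylation, 42 had a 2-fold change excluded, and the median was -0.04. Pkm, pyruvate kinase, had 3261 and 4092 CPM in the knockouts and 3901 and 3442 CPM in the controls. Of 28 glycolysis and hypoxia genes, 3 had an unadjusted p under 0.05 by edgeR, in both directions, against 2.82% of all tested genes. By DESeq2 there were 2. Bnip3, a mitophagy receptor, had 7.88 and 5.05 CPM in the knockouts and 2.78 and 4.59 CPM in the controls (log2 0.80, 95% interval 0.15 to 1.45). Hif1a, the hypoxia-inducible factor subunit, had 124 and 90.5 CPM in the knockouts and 84.2 and 79.1 CPM in the controls (log2 0.40). Car9, a carbonic anhydrase induced by hypoxia, had 4.72 and 4.70 CPM in the knockouts and 8.12 and 6.35 CPM in the controls (log2 -0.62). Of 40 cell cycle genes, 0 passed by edgeR or DESeq2, 1 had an unadjusted p under 0.05 by edgeR, the median was 0.0049 and a 2-fold change was excluded for 28, a smaller share than over all tested genes (84.8%). Pcna, the clamp of DNA polymerase, had 207 and 179 CPM in the knockouts and 185 and 182 CPM in the controls. Angptl4, a lipase inhibitor, had 2.75 and 2.75 CPM in the knockouts and 0.948 and 0.881 CPM in the controls, without overlap (log2 1.58, adjusted p = 0.73). Slc7a11, the cystine importer, had 307 and 303 CPM in the knockouts and 246 and 225 CPM in the controls (log2 0.37, 95% interval 0.06 to 0.69, adjusted p = 1.00).

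In some lists most values lay on one side of 0 without a gene past the threshold by edgeR or DESeq2. Of 62 tested cytosolic ribosomal protein genes, 61 had a value below 0, with a median log2 fold change of -0.20, against 51.8% of all tested genes and 59.4% of those in the highest 20% by level below 0. Rplp0, of the ribosomal stalk, had 1933 and 2234 CPM in the knockouts and 2646 and 2158 CPM in the controls. Relative to the control mean, the median ribosomal gene stood on the log2 scale at -0.27 and -0.11 in the knockouts and at 0.20 and -0.20 in the controls. Without control 1, the median was 0.01 and 24 of 62 were below 0. Of 24 cholesterol genes, 21 had a value above 0, with a median of 0.09. Without knockout 2 they were 14 of 24 with a median of 0.05, and with library totals without TMM 24 of 24 with a median of 0.19, where the median of all genes was 0.10. The sterol transporter gene Stard4 had 31.7 and 25 CPM in the knockouts and 19.5 and 23.6 CPM in the controls (log2 0.39, adjusted p = 1.00).

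Among lists with at least 5 tested genes, markers of monocytes and progenitors had the highest median, 0.42 over 8. Irf8, a transcription factor of the lineage, had 164 and 177 CPM in the knockouts and 181 and 192 CPM in the controls, and the other 7 reached at most 8.72 CPM in any library. The monocyte gene Ly6c2 had 1.97 and 2.24 CPM in the knockouts and 1.42 and 1.45 CPM in the controls (log2 0.55, 95% interval -0.37 to 1.47). F13a1, coagulation factor XIII, had 2.63 and 2.98 CPM in the knockouts and 1.22 and 2.14 CPM in the controls. The granulocyte factor gene Cebpe had 0.239 and 0.344 CPM in the knockouts and 0.812 and 0.944 CPM in the controls (log2 -1.56, adjusted p = 1.00). The monocyte chemokine receptor gene Ccr2 had 6 and 9 reads in the knockouts and 0 and 0 in the controls, too few to be tested. The summed FPKM of the list was 29.3 and 31.3 in the knockouts and 27.3 and 31.7 in the controls, of which Irf8 alone gave 24.7 and 25.5 in the knockouts and 23.7 and 27.2 in the controls. The list's part in the results above was not tested.

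The dendritic cell cultures of the same genotypes give the other view of the knockout. Fitted alone, they had 0 of 11357 genes past the threshold by edgeR (0%) and 128 at an unadjusted p under 0.05, and the knockout effect in BMDM minus that in BMDC passed for 0 of 11671 genes (0%) by edgeR, with 225 at an unadjusted p under 0.05. DESeq2 also gave 0, with 338 at an unadjusted p under 0.05. Without knockout BMDC 1 the difference passed for 3733 genes, and without knockout BMDC 2 for 0. Even so, Lyz2 had 107 and 205 CPM in the knockout BMDC and 17991 and 20072 CPM in the control BMDC. Trpv2 had 37 and 57 CPM in the knockout BMDC and 187 and 244 CPM in the control BMDC. The adjusted p by edgeR was 0.54 for Lyz2 and 0.97 for Trpv2, so 0 genes past the threshold does not mean that none differed. Dendritic cell values are therefore given beside those of the macrophages without a call.

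Lrmda had 2.19 and 3.46 CPM in the knockout BMDC and 12.9 and 11.4 CPM in the control BMDC, and its effects differed by -0.08 on the log2 scale (SE 0.68). Gm15446 had 0.0522 and 0.212 CPM in the knockout BMDC and 5.41 and 2.77 CPM in the control BMDC (difference 0.06, SE 1.26). Dynlt1b had 19.4 and 17.4 CPM in the knockout BMDC and 12.1 and 5.54 CPM in the control BMDC (difference 0.25, SE 0.50). Cnbd2 had 6.06 and 17.1 CPM in the knockout BMDC and 2.12 and 3.71 CPM in the control BMDC (difference -0.69, SE 0.74). The effects on Trpv2 differed by -1.11 (SE 0.39), those on Lyz2 by -0.92 (SE 0.54) and those on Lyz1 by -1.34 (SE 0.53). The adjusted p by edgeR was 0.84 for each. Lyz1 was low in the BMDC, at 0.313 and 0.494 CPM in the knockouts and 0.949 and 1.63 CPM in the controls.

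Eif2s3y, Colec12 and Cxcl1 looked otherwise. Eif2s3y overlapped in the BMDC, with 64.3 and 30.8 CPM in the knockouts and 54.5 and 47.0 CPM in the controls (difference -1.01, SE 0.50). Colec12 overlapped too, at 9.71 and 5.93 CPM in the knockout BMDC and 7.03 and 10.7 CPM in the control BMDC (difference 0.98, SE 0.44). Cxcl1 had 62.8 and 46.6 CPM in the knockout BMDC and 154 and 69.2 CPM in the control BMDC (difference 2.27, SE 0.71). The adjusted p of each of these 3 differences was 0.84 by edgeR. For Ifi208 the difference was -4.07 (SE 2.20, adjusted p = 0.84), and Capn11 was not in the joint fit.

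The authors' deposited table had 8 genes with an adjusted p under 0.05, and all 8 were among the 12 above. They were Lyz2, Trpv2, Lyz1, Gm15446, Eif2s3y, Dynlt1b, Lrmda and Ifi208. In the authors' deposited table the log2 fold change of Lrmda was -2.20, with an adjusted p of 4.8e-04, and that of Dynlt1b was 1.31, with an adjusted p of 3.5e-05.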

How the data were processed

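Poly(A) RNA was sequenced from 2 knockout and 2 control macrophage cultures. Per the labels' protocols, stranded TruSeq libraries were trimmed with cutadapt and counted per gene with HTSeq, and the protocol names GRCm38. GRCm38 and GRCm39 both appear in the submitters' processing notes, so coordinates are as deposited (2.23% of gene starts equal GENCODE M21 on GRCm38). No aligner, tool version or strand setting is named in the sources used. The read counts the authors deposited are raw whole numbers. The FPKM that the authors deposited equal these counts scaled by listed length and library total. The authors' deposited log2 fold changes and p-values are quoted only where named.

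Counts were tested with the quasi-likelihood test of edgeR 4.0.16 (R 4.3.3; TMM, filterByExpr with its minimum count set to 10, threshold 0.05 on the p adjusted by Benjamini-Hochberg). Standard errors use working weights and the moderated quasi-dispersion, and 95% intervals the t quantile at the total degrees of freedom. A joint fit of all 8 libraries tested the difference between cell types, over genes listed in both tables. Counts of 0 are bounded at 3 counts (0.172 to 0.203 CPM), for counting error only. The 2 libraries of each group differed beyond sampling noise by a chi-square test. Same-numbered libraries come from different mice. Sequences were read from GENCODE M21 transcripts. The edgeR fit was run on simulated counts that gave every gene the same spread beyond counting error. That run cannot show how well the intervals hold for the spread of these data.

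Alternatives were DESeq2 1.42.0, limma 3.58.1 (voom, and log2(FPKM + 1) or log2(FPKM + 0.1)), other scalings and filters, a replicate block, and leaving out each library. The comparison, the 39 lists and the rule for named genes were chosen with earlier results of these data known. The rule names Trpv2, Lyz2, Lyz1 and Lrmda, every gene past the threshold, the 8 smallest p each way beyond it (predicted names left out), per list the smallest p and the 2 highest FPKM, and the 8 narrowest intervals. Other genes were named after their values were seen. They are the Dynlt1 and Y-linked families, Eif2s3x, Mcoln3, Trpm7, Trpv4, Hif1a, Car9 and Rab38. Yeats4, Zfp286, Orai1, Atp2a2, Cd36, Ly6c2, F13a1 and genes too low to test also belong to them.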

Additional observations from a re-analysis of the deposited data

How the results depend on the processing

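Against 12 genes past the threshold (5 higher, 7 lower), library totals without TMM gave 5 (1 higher, 4 lower) and library totals without the Lyz2 counts gave 6 (1 higher, 5 lower). With library totals alone the median of all genes was 0.10, against -0.01. DESeq2 size factors in edgeR gave 10 (3 higher, 7 lower), the DESeq2 test 9, and limma on log2(FPKM + 1) 8. The joint fit of all 8 libraries, which takes in the spread of the BMDC, gave 2, Trpv2 and Lyz2, which passed under every alternative run. Lyz1, Gm15446 and Dynlt1b missed the threshold in the joint fit alone. Leaving out 1 library gave 11 to 34 genes, the highest without knockout 2 (26 higher, 8 lower) and 18 without control 2 (8 higher, 10 lower). Members of lists past the threshold numbered 8, against 5 with log2(FPKM + 1), 4 with either of the scalings by totals, 2 in the joint fit, and 8 to 11 without 1 library. Genes with a 2-fold change excluded numbered 9345, against 6096 in the joint fit and 8373 to 8848 without 1 library. Those with a 1.5-fold change excluded numbered 6433, against 969 in the joint fit and 2915 to 5312 without 1 library, the lowest without knockout 2 and 3597 without control 2. The difference between the cell types passed for 0 to 3733 genes without 1 library. Library numbers do not pair knockout with control mice. A replicate block gave 11 genes, 9169 within 2-fold and 4925 within 1.5-fold, with Colec12 lost (edgeR adjusted p = 0.20). Over genes, the differences within the same-numbered pairs correlated at -0.244, and crossed pairing, chosen after seeing the data, gave 29 genes (21 higher, 8 lower). None of the named genes past the threshold changed direction under an alternative. Where 1 library was left out, the lone library of its group was assumed to vary like the other group. Depth limits the genes below about 5.36 CPM, where a 2-fold change was excluded for 29.5%.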
